A study of Mus musculus with 2 samples.

Results

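The Sox genes of subgroups D, E and F were described in mouse neural tube, the embryonic precursor of brain and spinal cord, dissected at embryonic day 12.5. The 9 members were Sox5, Sox6 and Sox13 (SoxD), Sox8, Sox9 and Sox10 (SoxE), and Sox7, Sox17 and Sox18 (SoxF). They were taken by name and found by Ensembl identifier among the 43346 mouse genes of both deposited gene tables, with 39 transcripts in the transcript tables. The labels give 1 group of 2 total RNA-seq libraries from healthy B6NCrl embryos of both sexes, with no treatment, no altered allele and no control group. The pool called replicate 1 held 120 embryos and that called replicate 2 held 88. Both carry the same donor identifier, and each library used 10 ng of RNA longer than 200 nucleotides. Levels are in TPM, a share of all transcripts corrected for transcript length, as the value in each pool and as mean ± SD over the 2 pools. With 1 group there was no condition to compare and no p-value was computed, so the spread described below is that between the pools.

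Sox proteins bind the minor groove of DNA through a high mobility group (HMG) box and bend it, and they usually act with partner proteins. SoxD proteins hold a coiled coil through which they pair, carry no known activation domain, and modulate other Sox factors in cartilage and in the oligodendrocyte lineage. SoxE proteins are transcriptional activators: Sox9 marks neural progenitors that acquire glial potential and also drives cartilage formation, while Sox10 marks neural crest, its glial and melanocyte derivatives, and oligodendrocyte precursors. SoxF proteins are best known from endothelium, where they act in arterial and lymphatic differentiation, and Sox17 also from endoderm.

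The HMG box was taken from an alignment of the 9 translated GENCODE M21 coding sequences. It was the gap-free block with the most residues identical in all 9, which spanned 84 codons or 252 bases. A stretch of 90 of these bases is printed below on the coding strand for 8 members. The stretches are shown because they carry both bases that the family shares and bases that differ between subgroups. Capitals mark the 41 of 90 bases that are identical in all 9 members.
Sox5: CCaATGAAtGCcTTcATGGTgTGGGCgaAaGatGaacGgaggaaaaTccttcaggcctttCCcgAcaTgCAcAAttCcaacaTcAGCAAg
Sox6: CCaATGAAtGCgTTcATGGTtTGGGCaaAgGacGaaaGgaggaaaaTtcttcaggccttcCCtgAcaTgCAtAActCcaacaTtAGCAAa
Sox13: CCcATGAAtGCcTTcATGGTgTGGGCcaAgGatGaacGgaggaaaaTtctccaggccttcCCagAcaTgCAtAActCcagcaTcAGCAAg
Sox8: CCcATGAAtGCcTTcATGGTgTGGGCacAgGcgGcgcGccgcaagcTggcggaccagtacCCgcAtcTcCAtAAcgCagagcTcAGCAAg
Sox9: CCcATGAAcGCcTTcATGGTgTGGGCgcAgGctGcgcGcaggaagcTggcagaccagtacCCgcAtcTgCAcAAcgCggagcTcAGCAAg
Sox10: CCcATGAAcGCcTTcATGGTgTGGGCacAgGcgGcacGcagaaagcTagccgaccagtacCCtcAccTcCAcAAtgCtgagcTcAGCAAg
Sox17: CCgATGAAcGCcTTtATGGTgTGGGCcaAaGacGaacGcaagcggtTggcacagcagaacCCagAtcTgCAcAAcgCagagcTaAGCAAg
Sox18: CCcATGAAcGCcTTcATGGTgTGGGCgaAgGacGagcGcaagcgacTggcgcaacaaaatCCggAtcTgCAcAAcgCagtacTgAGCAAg
On GRCm38 these stretches lie at chr6:143841181-143841270, chr7:115489670-115489759 and chr1:133385473-133385562 for Sox5, Sox6 and Sox13, all on the minus strand. For Sox8, Sox9 and Sox10 they lie at chr17:25570130-25570219 (minus), chr11:112782906-112782995 (plus) and chr15:79163309-79163398 (minus). For Sox17 and Sox18 they lie at chr1:4493107-4493196 and chr2:181671189-181671278, both on the minus strand. Each stretch is coding and sits within 1 exon: a late exon in the SoxD genes, exon 13 of 15 in Sox5, and exon 1 in Sox8, Sox9 and Sox18. Over the whole block, the 9 pairs within a subgroup were 74.2 to 84.9% identical (median 81.0%). The 27 pairs between subgroups were 51.2 to 74.2% identical (median 57.1%). Sox8 and Sox9 were the most alike pair, and Sox9 with Sox17 reached 74.2%, the same value as the least alike pair within a subgroup, Sox7 with Sox18.

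All 9 members were detected at 1 TPM or more in both pools, and SoxE held most of their RNA through Sox9. The summed level of the SoxE genes was 130.89 and 137.72 TPM in replicates 1 and 2, that of the SoxD genes 50.34 and 51.34 TPM, and that of the SoxF genes 35.6 and 36.84 TPM. As shares of the members' summed TPM these came to 60.7 ± 0.424% for SoxE, 23.0 ± 0.346% for SoxD and 16.4 ± 0.0780% for SoxF (SD, n = 2). Counted over transcripts that encode the whole HMG box, the SoxD share was 14.4%, a value that depends on which models were annotated. By reads without correction for length the SoxF share was 9.60%. In bulk tissue, fewer cells of a type and less RNA per cell cannot be told apart, so the levels are not levels per cell. The members together held 14317.5 and 15081.95 estimated reads in replicates 1 and 2.

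**Figure D1:**
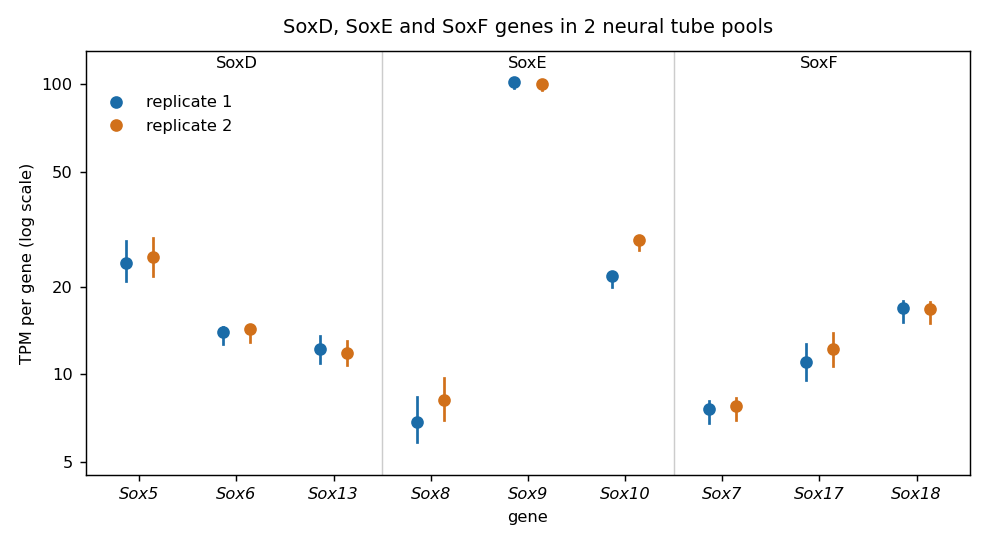
The level of each member in TPM (log axis) in replicate 1 (blue) and replicate 2 (orange), by subgroup, with the deposited credibility interval of each value as a line; its level is not stated. Sox9 stands near 100 TPM in both pools, the other 8 lie between 6.87 and 29.08 TPM, and the intervals of the pools are apart for Sox10 alone.

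Among the SoxE genes, Sox9 (ENSMUSG00000000567, chr11:112782224-112787760) had 102.17 and 100.46 TPM in replicates 1 and 2, or 101.3 ± 1.21 TPM (SD, n = 2), from 8201 and 8370 reads. It was the highest of the 9 members in both pools, at 3.98 times the mean of Sox10, the next in order, and its mean lay above that of 87.8% of the 13333 protein-coding genes detected in both pools. Its single transcript of 4135 nucleotides leaves no split between models. The deposited intervals of Sox9, 97.1 to 101.3 TPM in replicate 1 and 95.6 to 99.8 TPM in replicate 2, end just below its TPM and enclose the deposited posterior mean, 99.3 and 97.7 TPM. Sox9 made up 78.1% of SoxE TPM in replicate 1 and 72.9% in replicate 2.

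Sox10 (ENSMUSG00000033006, chr15:79154908-79165240), the crest and glial member, had 21.85 TPM from 1136 reads in replicate 1 and 29.08 TPM from 1569 reads in replicate 2. The means of Sox10 and Sox5 stood next to each other, at 25.5 ± 5.11 and 24.7 ± 0.799 TPM (SD, n = 2), and their ranges overlapped. Sox10 held 16.7% of SoxE TPM in replicate 1 and 21.1% in replicate 2. Sox8 (ENSMUSG00000024176, chr17:25565892-25570686), which overlaps in function with Sox9 and Sox10 in glia and crest, had 6.87 and 8.18 TPM in replicates 1 and 2, or 7.53 ± 0.926 TPM (SD, n = 2), from 330 and 379 reads. It was the lowest member by mean, and its range overlapped that of Sox7. An antisense gene, 2810468N07Rik, overlaps Sox8 and had 4.18 and 3.53 TPM from 104 and 91 reads. The sources used here do not say if reads were assigned by strand, so reads of Sox8 and of this gene may not be separated.

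Among the SoxD genes, Sox5 (ENSMUSG00000041540, chr6:143828425-144781977) had 24.14 and 25.27 TPM in replicates 1 and 2 from 1067 and 1005 reads; it stood above Sox10 in replicate 1 and below it in replicate 2. Sox6 (ENSMUSG00000051910, chr7:115470872-116038796), its close relative and frequent partner in a dimer, had 14.03 and 14.28 TPM, or 14.2 ± 0.177 TPM (SD, n = 2), from 1563 and 1584 reads. Sox6 thus had more reads than Sox5 and a lower TPM, and its effective length was 5602.61 and 5372.27 nucleotides, against 2222.79 and 1926.67 for Sox5. Sox13 (ENSMUSG00000070643, chr1:133382303-133424377), known from T lymphocytes, had 12.17 and 11.79 TPM, with an SD of 0.269 TPM (n = 2), from 654 and 719 reads. Sox5 made up 48.0 and 49.2% of SoxD TPM, Sox6 27.9 and 27.8%, and Sox13 24.2 and 23.0%.

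Among the SoxF genes, Sox18 (ENSMUSG00000046470, chr2:181669836-181671640), which acts in lymphatic specification, was highest. It had 16.96 and 16.85 TPM in replicates 1 and 2, or 16.9 ± 0.0778 TPM (SD, n = 2), from 513 and 529 reads on 1 transcript. Sox17 (ENSMUSG00000025902, chr1:4490931-4497354), the arterial and endodermal member, had 11.03 and 12.19 TPM, or 11.6 ± 0.820 TPM (SD, n = 2), from 369.5 and 411.95 reads. Sox7 (ENSMUSG00000063060, chr14:63943673-63950732), which acts in early vessels, had 7.61 and 7.80 TPM, or 7.71 ± 0.134 TPM (SD, n = 2), from 484 and 515 reads. Within SoxF, Sox18 made up 47.6 and 45.7% of TPM, Sox17 31.0 and 33.1%, and Sox7 21.4 and 21.2%. The order Sox18, Sox17, Sox7 was the same in both pools, with no overlap of their ranges.

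By mean TPM the 9 members ran Sox9, Sox10, Sox5, Sox18, Sox6, Sox13, Sox17, Sox7, Sox8. Of the 8 neighbouring pairs in that order, 5 had ranges that did not overlap between the pools. The 3 pairs Sox10 and Sox5, Sox13 and Sox17, and Sox7 and Sox8 had overlapping ranges, so their order is not resolved. For Sox6 and Sox13 the ranges were apart but the deposited intervals overlapped in both pools.

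The same 2 libraries set these levels beside the SoxB and SoxC genes, which mark progenitors and newborn neurons. The 9 members summed to 216.83 and 225.9 TPM in replicates 1 and 2, against 769.39 and 770.7 TPM for the 8 SoxB and SoxC genes. Sox9, the highest member, lay below the SoxC genes Sox11 (474.99 and 483.19 TPM) and Sox4 (215.3 and 210.92 TPM) and above the SoxB gene Sox2 (38.81 and 37.59 TPM). The median member stood at 14.03 and 14.28 TPM, and the median SoxB or SoxC gene at 13.8 and 14.1 TPM. The members spread less widely, with single values between 6.87 and 102.17 TPM, against 1.55 to 483.19 TPM for SoxB and SoxC. The SoxG and SoxH genes Sox15 (0 and 0.25 TPM) and Sox30 (0.24 and 0.18 TPM) were not detected, so the lowest member, Sox8, stood well above them.

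The 39 transcripts of the 9 members divided unevenly: Sox7, Sox9, Sox10 and Sox18 had 1 each, and the other 5 members had 35. The transcript with the largest deposited share of its gene was the same in both pools for each of these 5 members. The 4 members with 1 transcript could not differ. By the M21 coding sequences, 23 of the 39 hold the whole HMG box. In 6 of the 39 the length in the tables differs from M21, and 6 were listed at 0 in both pools. Summed over the transcripts with the box, Sox9 (102.17 and 100.46 TPM) stayed first, and Sox5 was at rank 9 of 9. This split depends on which models the deposited annotation held, since absent models could take no reads. Sox5 had 14 there, 5 with the box, and Sox6 had 5, all with it.

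**Figure D2:**
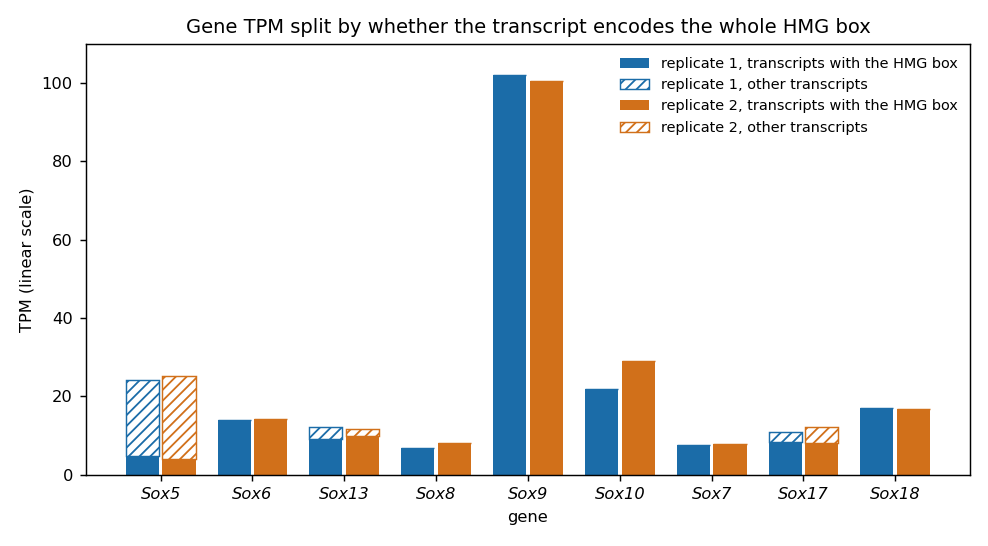
Gene TPM (linear axis from 0) of each member in replicate 1 (blue) and replicate 2 (orange), split into transcripts whose coding sequence holds the whole HMG box (filled) and other transcripts (hatched). The filled part of Sox5 is 4.72 and 4.15 TPM of 24.14 and 25.27, while 6 members have no hatched part.

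The Sox5 value in TPM rested on short models without the box. Its box-holding transcripts summed to 4.72 and 4.15 TPM in replicates 1 and 2, 19.6 and 16.4% of the gene's TPM, but held 61.8 and 60.4% of its reads. The leading model by share, Sox5-208, is a processed transcript of 351 nucleotides in 3 exons (chr6:144116478-144204057) with no coding sequence. It took 21.4 and 25.4% of the TPM of Sox5 from 25.91 and 33.32 reads. Of the other short models, Sox5-211, a coding fragment of 669 nucleotides without the box, took 19.7 and 14.5%, and the retained intron Sox5-213 (633 nucleotides) took 13.2 and 20.2%. The retained intron Sox5-207 (2470 nucleotides) took 11.7 and 8.62%. The 7 noncoding models together took 60.7 and 69.1% of the TPM of Sox5, from 353.65 and 354.72 reads.

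The long coding forms of Sox5 carried most of its reads. Sox5-201 (7243 nucleotides, chr6:143828425-144209480), whose coding sequence of 2289 bases holds the box, had 219.94 and 390.87 reads in replicates 1 and 2 and 6.41 and 10.5% of the TPM. Sox5-205 (7069 nucleotides in the tables, 3879 in M21) had 439.5 and 174.8 reads and 13.1 and 4.81% of the TPM. The pools thus ordered the 2 long forms in opposite ways, but the deposited intervals of each form overlapped between the pools. Their split within a pool is uncertain too: in replicate 1 the interval of Sox5-205 ran down to nearly 0 TPM, and that of Sox5-201 down to 0.0532 TPM. Of 7 annotated genes that overlap Sox5, the 5 antisense genes measured had 0 or 0.1 TPM in each pool.

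**Figure D3:**
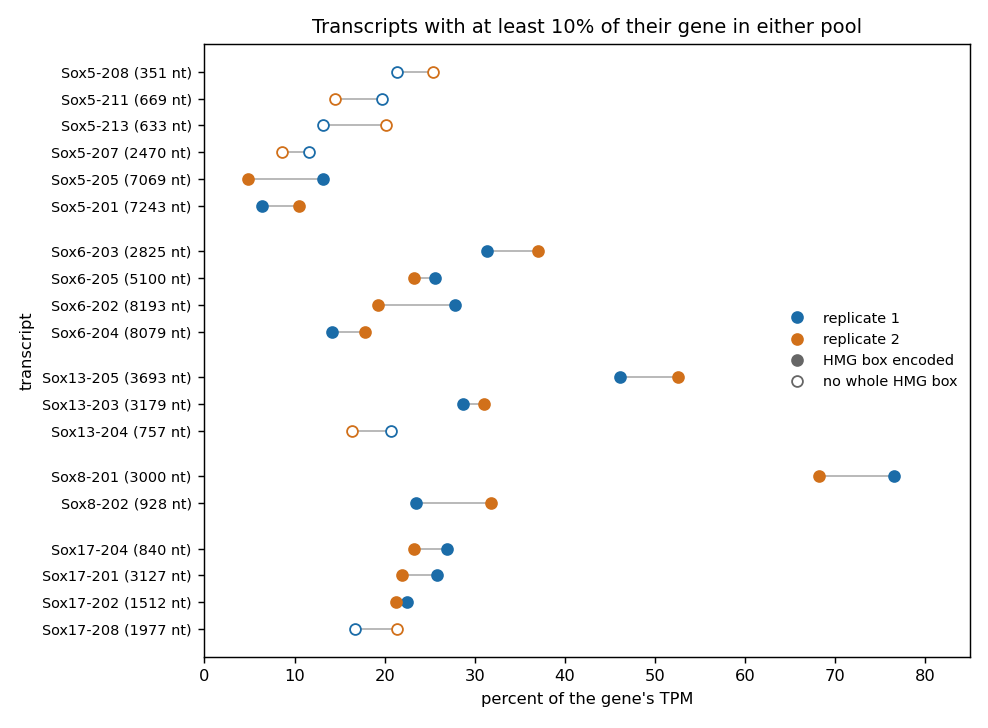
Share of the gene's TPM (percent) taken by each transcript with at least 10% in either pool, for the 5 members with several transcripts, in replicate 1 (blue) and replicate 2 (orange); filled points hold the whole HMG box, open points do not. The Sox5 points are open for the 4 uppermost models, and all 4 of Sox6 are filled.

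In Sox6 all 5 deposited transcripts hold the box, so none of its TPM could lie on models without the box. M21 also lists Sox6 models without the box, such as Sox6-209 and Sox6-214, which had no deposited values. The 5 deposited transcripts differ in where they start and also in where they end. Sox6-203 ends at chr7:115476658 and Sox6-205 at chr7:115474456, upstream of the end that the others share, chr7:115471344. Sox6-203 (2825 nucleotides) led with 31.4 and 37.0% of TPM in replicates 1 and 2. Sox6-202 (8193 nucleotides) took 27.9 and 19.3%, Sox6-205 (5100 nucleotides) 25.6 and 23.2%, and Sox6-204 (8079 nucleotides) 14.2 and 17.8%. By reads, Sox6-202 was the highest in both pools, with 628.95 and 460.68, against 238.47 and 297.17 for Sox6-203. The deposited TPM intervals of Sox6-203 and Sox6-202 overlapped in replicate 1 (3.16 to 5.37 and 2.76 to 4.61 TPM). They were apart in replicate 2 (4.00 to 6.14 and 1.93 to 3.48 TPM). The antisense gene Sox6os overlaps Sox6 and had 1.1 and 0.3 TPM from 7 and 2 reads.

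RefSeq promoter windows were held for 4 of the 9 members (Sox5, Sox6, Sox8 and Sox13), and 3 windows begin exactly at the M21 start of a Sox6 transcript named above. Their 150 bases upstream are shown because these starts carry most of the Sox6 reads and differ in base composition. They lie on the minus strand of GRCm38.p6 at chr7:116038745-116038894, chr7:116031048-116031197 and chr7:115824711-115824860, and capitals mark each CG.
Sox6-204 start: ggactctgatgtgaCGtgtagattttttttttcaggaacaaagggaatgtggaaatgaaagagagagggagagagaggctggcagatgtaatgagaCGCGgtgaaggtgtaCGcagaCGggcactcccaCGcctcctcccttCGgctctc
Sox6-202 start: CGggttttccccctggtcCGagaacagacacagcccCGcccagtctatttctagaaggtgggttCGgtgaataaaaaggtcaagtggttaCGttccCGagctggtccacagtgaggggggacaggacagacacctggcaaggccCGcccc
Sox6-205 start: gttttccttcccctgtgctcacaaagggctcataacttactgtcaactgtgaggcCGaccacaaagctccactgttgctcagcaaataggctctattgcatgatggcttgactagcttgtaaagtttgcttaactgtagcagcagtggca
The Sox6-204 and Sox6-202 windows held 7 CG each, and the Sox6-205 window held 1. Over all 32851 windows of that length the median was 4 CG (quartiles 1 and 11), and 85.7% held at least 1. None of the 9 windows held for the members contained TATAAA on either strand, a sequence present in 7.57% of all windows.

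In Sox13 and Sox8 a long coding transcript led. In Sox13, Sox13-205 (3693 nucleotides, chr1:133382303-133424377) led with 46.1 and 52.5% of TPM in replicates 1 and 2, from 400.96 and 459.72 reads. Sox13-203, which starts further downstream, took 28.7 and 31.1%. The retained intron Sox13-204, 757 nucleotides without the whole box, took 20.7 and 16.4% from 32.93 and 26.26 reads. A further retained intron, Sox13-202, took 4.51% in replicate 1 and was listed at 0 in replicate 2, and 74.8 and 83.6% of Sox13 TPM lay on box-holding models. In Sox8, Sox8-201 (3000 nucleotides) took 76.5 and 68.2%, and the shorter Sox8-202 (928 nucleotides), which shares its start and holds the box, took 23.5 and 31.8%.

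Sox17 was split among several transcripts. Sox17-204 (840 nucleotides) took 26.9 and 23.3% of its TPM in replicates 1 and 2, Sox17-201 (3127 nucleotides) 25.8 and 21.9%, and Sox17-202 (1512 nucleotides) 22.4 and 21.2%. By reads Sox17-201 was far ahead, with 171.46 and 166.96, against 43.73 and 43.39 for Sox17-204. Sox17-208 (1977 nucleotides), a coding model that does not hold the whole box, took 16.7 and 21.4% from 68.83 and 100.9 reads. Box-holding models made up 75.2 and 66.4% of Sox17 TPM, in replicate 2 the lowest share after that of Sox5.

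Between the pools, no member differed by more than 2-fold on the log2(TPM + 1) scale, against 1.43% of the 15735 genes that averaged 1 TPM or more (0.833% higher and 0.597% lower in replicate 1). The median log2 ratio of the members, replicate 1 over replicate 2, was -0.03, and that of all genes tested was also -0.03. Sox10 was furthest from 0, at -0.40, followed by Sox8 at -0.22 and Sox17 at -0.13; the other 6 members lay between -0.06 and 0.04. Behind Sox10 this order depends on the setting: with TMM-scaled counts Sox5 was at 0.18, Sox8 at -0.10 and Sox17 at -0.06, and over box-holding transcripts Sox17 was at 0.03. The sign changed in at least 1 setting for 5 of 9 members (Sox5, Sox6, Sox13, Sox7 and Sox17). For Sox10 the deposited TPM intervals, 20.0 to 22.5 in replicate 1 and 26.9 to 29.7 in replicate 2, did not overlap. This held for 1 member of 9 and for 14.3% of all genes tested, with 10.1% lower and 4.19% higher in replicate 1.

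The exact 95% binomial (Clopper-Pearson) interval of the read ratio, scaled by the library totals, excluded 0 on the log2 scale for 3 of 9 members, against 33.4% of all genes, so the members' share was near that background. These intervals cover counting error only. The log2 ratio of reads was -0.38 for Sox10 (interval -0.49 to -0.27), lower in replicate 1, a direction called for 18.8% of all genes. It was 0.06 for Sox9 (0.01 to 0.10) and 0.17 for Sox5 (0.05 to 0.30), higher in replicate 1, a direction called for 14.5% of all genes. For Sox5 the TPM ratio had the opposite sign, at -0.06, and its effective length was 2222.79 nucleotides in replicate 1 and 1926.67 in replicate 2, so no direction is given for it. For Sox8, with 330 and 379 reads, the interval of the read ratio ran from -0.33 to 0.10, so a difference was not detectable at this depth.

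**Figure D4:**
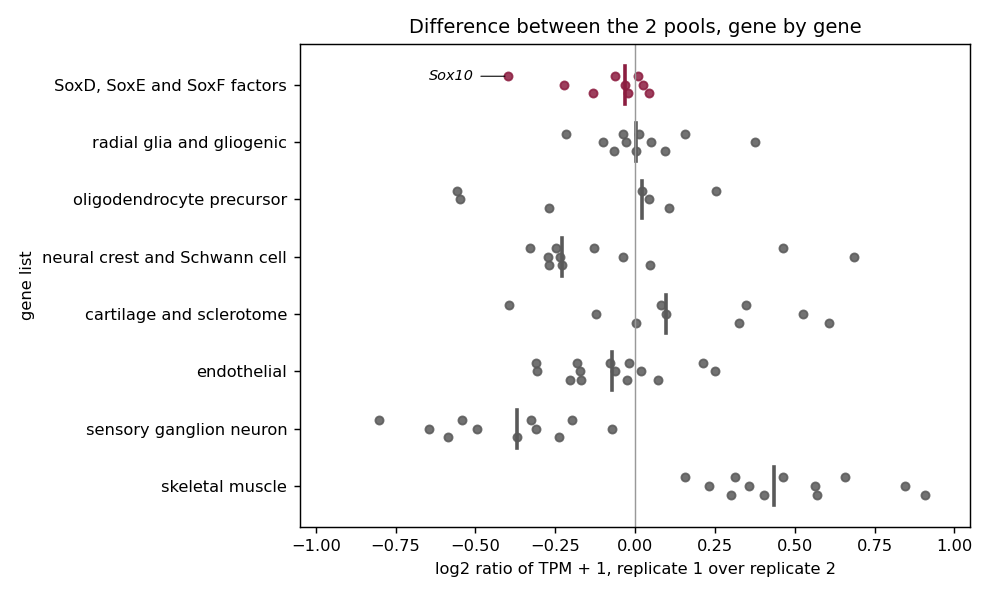
Log2 ratio of TPM + 1, replicate 1 over replicate 2, of each member (red, top row) and of each gene of 7 companion lists that averaged 1 TPM or more (grey); the vertical bar in each row is the median. Sox10 lies at -0.40, the sensory ganglion genes all lie below 0, and the skeletal muscle genes all lie above 0.

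Genes of the tissues in which the members are best known were described from lists, given as the summed TPM in replicates 1 and 2. Beside Sox10 stood 12 genes of neural crest and Schwann cells, which summed to 275.41 and 318.99 TPM, with 8 of 11 tested lower in replicate 1 and a median log2 ratio of -0.23. Any difference counts here, and of all genes tested 58.5% were lower and 41.2% higher in replicate 1, so 8 of 11 is read against that share. Among them Ednrb and Ngfr, receptors for endothelins and neurotrophins, had 106.48 and 128.92 TPM and 87.18 and 103.64 TPM. S100b had 0.73 and 0.77 TPM. The read interval excluded 0 for 6 of these genes in the direction of Sox10, against 18.8% of all genes. It did so for 2 in the other, against 14.5%, among them the crest regulator Tfap2a (15.08 and 10.67 TPM).

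Sensory ganglia lie beside the neural tube and hold glia with Sox10. All 11 genes listed for them were lower in replicate 1, against 58.5% of all genes. The 11 genes came to 480.03 and 667.58 TPM in replicates 1 and 2, with a median log2 ratio of -0.37. The read interval was off 0 for 9 of 11, each lower in replicate 1, against 18.8% of all genes. Isl1 had 110.25 and 155.67 TPM, Prph 84.19 and 132.3 TPM, and Pou4f1 95.24 and 119.64 TPM. Whether this RNA came from ganglia or from neurons of the tube itself was not tested. Among general neuron genes the log2 TPM ratio was -0.32 for Stmn2, -0.25 for Elavl4, -0.04 for Tubb3, -0.03 for Map2 and 0.14 for Elavl3. Skeletal muscle genes had the opposite sign to the ganglion list, at 392.92 and 280.66 TPM. Of these 12 of 12 were higher in replicate 1, against 41.2% of all genes, with a median of 0.43. They were led by Actc1 (130.56 and 87.96 TPM), Acta1 (64 and 46.12 TPM) and Tnnt1 (61.88 and 48.1 TPM). The part of these other cell types in the Sox10 difference was not tested. Of the melanocyte genes, which Sox10 also marks, 3 of 7 were tested and all 3 were lower in replicate 1, against 58.5% of all genes, with Kit at 22.42 and 25.05 TPM, Pmel at 2.01 and 3.03 TPM and Dct at 1.16 and 2.22 TPM. Mitf (0.63 and 0.73 TPM), Tyr (0.22 and 0.21 TPM) and Tyrp1 (0.02 and 0.1 TPM) were below detection, and Mlana was listed at 0 in both pools.

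Sox9 stood beside abundant radial glia and gliogenic genes, 11 of 12 of which were detected, at 2095.38 and 2148.61 TPM in sum in replicates 1 and 2. Fabp7, a fatty acid binding protein of radial glia, had 1468.89 and 1537.09 TPM, the Notch target Hes5 338.83 and 327.38 TPM, and the glutamate transporter Slc1a3 68.56 and 70.48 TPM. Gfap, a gene of mature astrocytes, had 0.06 and 0.1 TPM. Their ratios split evenly, with 6 higher and 5 lower in replicate 1 and a median of 0.00. Oligodendrocyte precursor genes, a second site of Sox10, Sox5 and Sox6, were low: 7 of 8 were detected and they summed to 36.03 and 37.61 TPM. Of these Pdgfra, which mesenchyme also uses, had 19.1 and 18.49 TPM, Nkx2-2 3.89 and 3.1 TPM, and Olig1 2.53 and 4.2 TPM. By TPM 4 of 7 tested were higher in replicate 1, against 41.2% of all genes, with a median log2 ratio of 0.02. The read interval excluded 0 for 3 of the 7, each lower in replicate 1, and for 0 in the other direction. Of all genes 18.8% were called lower and 14.5% higher in this way. The 3 were Olig1, Bcan and Gpr17, the last pair named after their values were seen, with log2 read ratios of -0.70, -0.71 and -0.38.

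Cartilage and sclerotome genes, the other setting of Sox9, Sox5 and Sox6, summed to 307.19 and 279.33 TPM in replicates 1 and 2. Of 9 tested, 7 were higher in replicate 1, against 41.2% of all genes, with a median of 0.10. The cartilage collagen Col2a1, a known target of Sox9, had 160.09 and 151.17 TPM, Col9a3 46.64 and 43.59 TPM, and Col9a1 32.83 and 25.62 TPM. Of the 12 genes 9 were detected. The 3 below detection were Acan at 0.83 and 0.77 TPM, Matn1 at 0.24 and 0.51 TPM and Comp at 0.26 and 0.21 TPM. How Sox9, Sox5 and Sox6 RNA divides between neural progenitors and cartilage cells was not tested.

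The SoxF genes stood beside 14 endothelial genes, all detected, which summed to 274.17 and 282.38 TPM in replicates 1 and 2. The median log2 ratio of these 14 was -0.07, against -0.03 for all genes tested. By TPM 10 of 14 were lower in replicate 1, against 58.5% of all genes. The read interval excluded 0 for 5, lower in replicate 1, against 18.8% of all genes. It did so for 1 in the other direction, against 14.5%. The secreted factor Egfl7 had 62.83 and 62.04 TPM, the tight junction gene Cldn5 47.45 and 45.09 TPM, and the adhesion gene Esam 31.06 and 31.63 TPM. Genes of arteries, veins and lymphatics were all detected, 12 of 12, at 311.63 and 319.72 TPM, led by Pdpn (99.52 and 95.86 TPM), Nr2f2 (57.95 and 62.01 TPM) and Efnb2 (36.45 and 41.17 TPM). These 3 are also used outside vessels. Sox18 stood at 16.96 and 16.85 TPM, Sox17 at 11.03 and 12.19 TPM and Sox7 at 7.61 and 7.80 TPM. These values lay within the range of single endothelial genes, 1.94 to 62.83 TPM. That wide range does not set the SoxF genes apart. It also holds every SoxD and SoxE member but Sox9, and the median of all genes tested (16.58 and 16.96 TPM). Blood was present too, with beta globins at 6893.76 and 6689.41 TPM, led by Hbb-y at 5431.85 and 5298.06 TPM, Hbb-bt at 702.68 and 670.45 TPM and Hbb-bh1 at 397.58 and 409.34 TPM; Hbb-bh2 had 0 and 0.42 TPM.

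Liver and gut genes, which mark the endoderm in which Sox17 also acts, were low, at 17.65 and 13.29 TPM in replicates 1 and 2 over 9 genes. Apoa2 had 6.23 and 4.49 TPM, Epcam 4.61 and 4.57 TPM, and Afp 3.87 and 2.15 TPM. The endoderm regulator Hnf4a had 0.01 TPM in replicate 1 and was listed at 0 in replicate 2, Ttr had 0.13 and 0.22 TPM, Foxa3 0.16 and 0.08 TPM, and Cdx2 was listed at 0 in both pools. Partner proteins of SoxD and SoxF factors were detected for 9 of 9 genes, at 1022.71 and 1064.58 TPM. Ctnnb1, which encodes the Wnt effector beta-catenin, had 412.65 and 437.41 TPM, and the corepressors Ctbp1 and Ctbp2 had 390.96 and 390.51 TPM and 100.25 and 107.68 TPM. Of the neural tube genes, 13 of 13 were detected, led by Fabp7, the neuronal tubulin Tubb3 (1003.53 and 1030.27 TPM) and Stmn2 (455.13 and 569.45 TPM). Detection alone does not tell tissues apart here, since 12 of 12 skeletal muscle genes and 11 of 11 sensory ganglion genes were detected too. No gene of any of the 15 lists differed by more than 2-fold between the pools.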

How the data were processed

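Total RNA was extracted with an Ambion mirVana kit, per the labels' protocols, and 2 libraries of 1 group were analysed. Per its title, a later series supersedes this one and was not used here. The authors deposited expected counts (estimated reads), TPM, FPKM and percent values (share of a transcript within its gene), per the file headers, on mm10 with GENCODE annotation M4, per the deposited read-me text. The program, the interval level and strand use are not given in those sources. Short number-named and spike-in rows (3.07 and 2.97% of counts) stayed out of totals, which were 31610805 and 33530172 counts in replicates 1 and 2, so 3 counts correspond to 0.0949 and 0.0895 CPM.

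Names and coding sequences came from GENCODE M21 (GRCm38, which is mm10 with newer gene models) and promoters from RefSeq (GRCm38.p6). Translated coding sequences were aligned with MAFFT 7.526. Detection required at least 1 TPM in each library. Ratios are replicate 1 over replicate 2 with 1 TPM added, which understates differences of low genes. TMM factors (edgeR 4.0.16) were 0.997 and 1.00 and DESeq2 1.42.0 size factors 0.969 and 1.03, both on rounded expected counts. Scripts (Python 3.11.15, R 4.3.3) were tested on simulated data.

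The members, the 15 companion lists (143 distinct genes) and the rules were chosen with earlier results of these data known. All members are named, as are transcripts with at least 10% of their gene in either library. The 3 highest genes of each list and up to 3 below 1 TPM in both are named too. Tfap2a, Bcan, Gpr17, Elavl3, Elavl4, Map2, the transcript Sox13-202 and the further low genes Mlana and Cdx2 were added after their values were seen. Of the items these rules take, 1 gene and 1 sequence are not reported here.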

Additional observations from a re-analysis of the deposited data

How the results depend on the processing

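The 9 members were detected in both pools under each alternative run. For the 5 members with several transcripts, the leading transcript was also the same in both pools by posterior mean percent, the only alternative tried. The other 4 have 1 transcript and could not differ. By reads the leading Sox5 transcript was not the same: Sox5-205 in replicate 1 (439.5) and Sox5-201 in replicate 2 (390.87). The SoxD share of summed TPM (23.0%) was 23.4% by posterior mean TPM, 22.4% by expected counts and 14.4% over box-holding transcripts, an alternative chosen after seeing the data. The SoxE share (60.7%) was 60.2, 68.0 and 68.8% under the same settings, in that order. The SoxF share (16.4%) was 9.60% by expected counts (no length correction) and 16.8% over box-holding transcripts. With 1 replicate left out in turn, the shares were 22.7 to 23.2% for SoxD, 60.4 to 61.0% for SoxE and 16.3 to 16.4% for SoxF. At the smaller fold tried, 1 member (Sox10) differed between the pools in place of 0. The share of all genes at that fold was not computed, so whether 1 of 9 is ordinary was not tested. With 99% intervals the read ratio was off 0 for 2 members in place of 3. The share of all genes with such intervals off 0 was not computed either, so this count cannot be read against a background. The log2 ratio of Sox5, replicate 1 over replicate 2, was -0.06 by TPM and reversed to 0.18 with TMM-scaled counts, 0.18 with DESeq2-scaled counts and 0.15 over box-holding transcripts; the cause was not tested. Of 45 member ratios recomputed, 34 kept their sign and 11, of 5 members, did not; that of Sox10 stayed negative. No paired analysis was possible because the labels give 1 group. Levels of short or low transcripts rest on few reads, down to 25.91 for the leading Sox5 model.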
